A study of Homo sapiens with 4 samples.

Results

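The galectins and the galectin-3-binding protein were followed through wt and paclitaxel-resistant anaplastic thyroid cancer (ATC) cells. The 5 members were taken by gene name: LGALS1, LGALS3, LGALS3BP, LGALS8 and LGALS9, 5 of the 26485 gene names in the deposited tables. They were chosen by gene name and by the measured abundance of LGALS1 in SW1736-PTX, where it was the most abundant mRNA, so the levels given here are a description. The wider family of 19 names, made up of CLC (galectin-10) and every name that starts with LGALS, was also read.

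Galectins are small carbohydrate-binding proteins that recognise beta-galactosides, above all N-acetyllactosamine repeats on N- and O-glycans. They are made in the cytosol, leave the cell without a signal peptide and cross-link glycoproteins at the cell surface and in the matrix, while inside the cell they bind glycans exposed on damaged endosomes and lysosomes. Galectin-3-binding protein is not a galectin but a large, heavily glycosylated secreted protein that galectin-3 and galectin-1 bind. In thyroid pathology, galectin-3 is widely used as an immunohistochemical marker of malignant nodules.

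SW1736 and 8505C are established human cell lines from ATC. The SW1736-PTX and 8505C-PTX cells had been derived from them by 6 months in paclitaxel, a microtubule-stabilising taxane, with the dose raised from 1 nM to 1.5 µM, and their medium afterwards held 1.5 µM of the drug, which is not listed for wt cells. The resistant cells therefore differ from wt cells both in their selection history and in the drug present in the medium, and these cannot be told apart. One mRNA library was sequenced for each of the 4 conditions, so a difference has no replicate check, and no p-value is given.

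Levels are FPKM, aligned fragments scaled to gene length and library depth, as deposited by the authors. Depth was between 43.5 and 57.9 M reads, with both PTX libraries deeper than their wt libraries. Fewer cells that express a gene and less RNA per cell cannot be told apart in such bulk libraries. The SW1736-PTX library was less like SW1736 wt than like either 8505C library, and over 14692 expressed genes its Pearson correlation in log2(FPKM + 0.1) was 0.767 with SW1736 wt, 0.873 with 8505C wt and 0.933 with 8505C-PTX. The thyroid transcription factor PAX8 had 38.2 FPKM in SW1736 wt against at most 0.206 elsewhere, while NKX2-1 was absent from SW1736 wt (0 FPKM) and between 30.5 and 39.0 elsewhere. The drug exporter gene ABCB1 was at 302 and 497 FPKM in SW1736-PTX and 8505C-PTX and at most 0.363 in wt cells. The methods state that the lines were typed by short tandem repeats, without naming the PTX cells. Whether the SW1736-PTX library derives from SW1736 was not tested, each change in SW1736 rests on the labels, and values of SW1736-PTX are also given against 8505C wt. Thyroglobulin (TG) did not exceed 0.00586 FPKM, and TSHR and SLC5A5 were at 0 in all 4 libraries, so these markers of differentiated thyrocytes were absent or nearly so. Of 8 leukocyte markers, 2 exceeded 0.5 FPKM in each library, CD68 and CD14, while CD3E and MS4A1 were at 0. The leukocyte list summed to 6.77, 24.4, 22.2 and 47.6 FPKM in SW1736 wt, SW1736-PTX, 8505C wt and 8505C-PTX. CD68 held most of each sum, at 5.84, 23.6, 21.7 and 43.0 FPKM in the same order, and was higher in each PTX library than in its wt library. The fibroblast list summed to 158, 11.0, 2.48 and 13.4 FPKM in the same order, with COL1A1 at 153 in SW1736 wt, and the endothelial list to 0.118, 0.505, 56.2 and 5.06, with CDH5 at 55.9 in 8505C wt. The part of these in the galectin values was not tested.

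**Figure D1:**
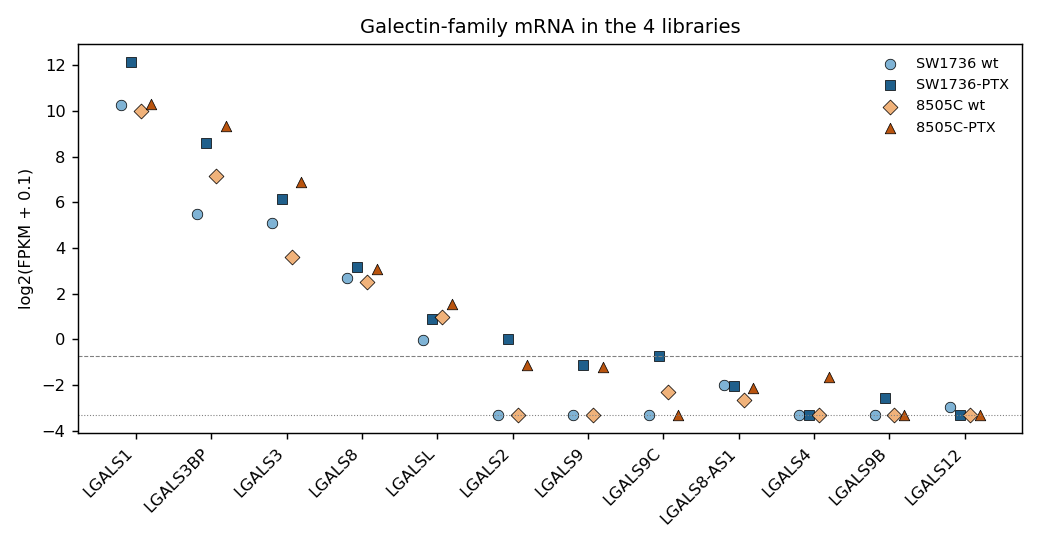
Levels of the 12 family names with any signal, as log2(FPKM + 0.1), 1 symbol per library. The dotted line is an FPKM of 0 and the dashed line the FPKM limit of 0.5; LGALS1, LGALS3BP, LGALS3, LGALS8 and LGALSL lie above the limit in every library.

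LGALS1, galectin-1, is a non-covalent homodimer that binds laminin, fibronectin and integrins. The gene (chromosome 22, 37675606 to 37679802, hg38, plus strand) has 4 exons and a transcript of 528 bp. LGALS1 mRNA was measured at 1239 FPKM (SW1736 wt), 4568 (SW1736-PTX), 1032 (8505C wt) and 1248 (8505C-PTX). SW1736-PTX was the high library, and the other libraries lay close together. LGALS1 held 1.01% of all TPM (FPKM rescaled so that each library has one total) in SW1736-PTX and between 0.236% and 0.283% in the other libraries. By FPKM it ranked 34 (SW1736 wt), 1 (SW1736-PTX), 58 (8505C wt) and 57 (8505C-PTX). It stood ahead of RPL8, at 4383 FPKM in the same library, whereas ACTB was first in both wt libraries and RPL8 in 8505C-PTX.

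Changes were computed as log2((PTX + 0.1)/(wt + 0.1)) of FPKM, which understates the change of low genes. A gene entered the comparison if 1 or both libraries of the pair exceeded 0.5 FPKM, and it was called when the log2 fold change lay beyond 1.5 in either direction. The level of LGALS1 was 3.69 times the wt level in SW1736-PTX (log2 fold change 1.88, called). In 8505C-PTX the ratio was 1.21 (log2 fold change 0.27, not called). Intervals for counting error only, at the 95% level from reads approximated from FPKM, transcript length and depth, were 3.64 to 3.73 and 1.19 to 1.23. The spread between cultures is unknown. SW1736-PTX was also above 8505C wt, with a log2 fold change of 2.15, and the wt lines differed by only -0.26 (8505C over SW1736).

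**Figure D2:**
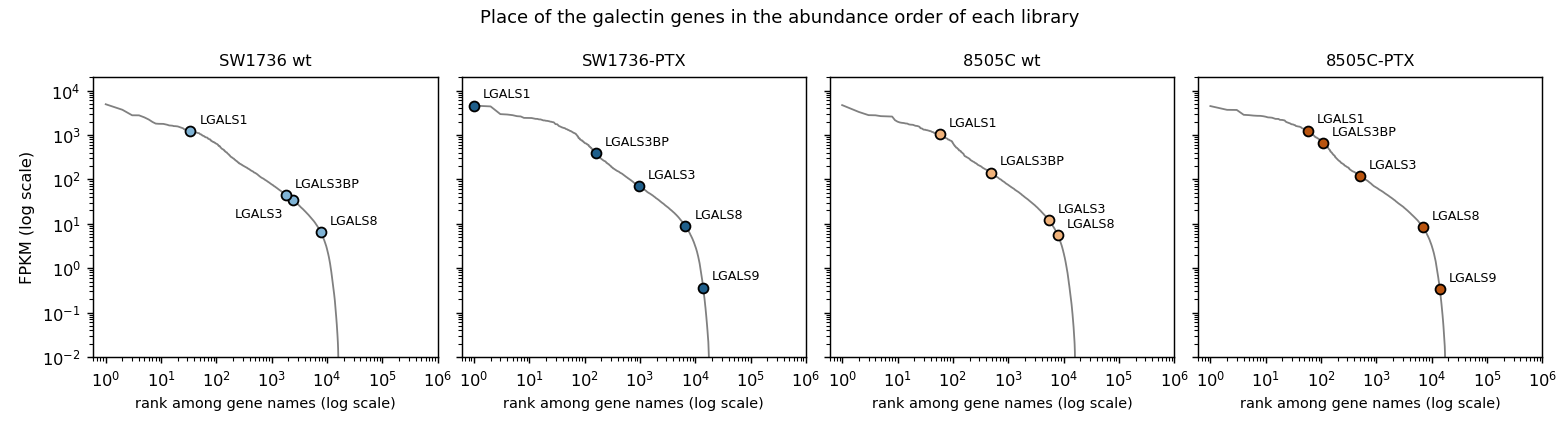
FPKM against rank for all gene names above 0 in each library, both on log scales, with the galectin genes marked. LGALS1 is at rank 1 in SW1736-PTX, and LGALS3BP moves from rank 1810 to 160 in SW1736 and from 486 to 108 in 8505C.

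LGALS3BP, the secreted galectin-3-binding protein (also known as Mac-2-binding protein or 90K), was the member called in both lines. It lies on chromosome 17 (78971253 to 78979979, minus strand) and has 6 exons and a transcript of 2202 bp. Its mRNA was measured at 44.5 FPKM (SW1736 wt), 393 (SW1736-PTX), 142 (8505C wt) and 643 (8505C-PTX). Both PTX libraries were above both wt libraries. The PTX level was 8.83 times that of wt in SW1736 (counting interval 8.57 to 9.10; log2 fold change 3.14) and 4.52 times in 8505C (4.44 to 4.60; log2 fold change 2.18). The wt lines differed as well, by a called log2 fold change of 1.67 (8505C over SW1736). Against 8505C wt, SW1736-PTX was higher by a log2 fold change of 1.47, which did not reach the limit.

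The 250 bases upstream of the LGALS3BP start, taken from RefSeq on GRCh38.p14 (chr17:78979924-78980173, minus strand), are shown because this gene rose in both lines and its window holds an interferon-type motif. The RefSeq start differs from the deposited gene end, so 56 of these bases, with most of that motif, lie inside the gene as the deposited tables place it. Capitals mark the core of interferon-stimulated response elements (GAAA, any 2 bases, then GAAA again) and a CCAAT box:
LGALS3BP: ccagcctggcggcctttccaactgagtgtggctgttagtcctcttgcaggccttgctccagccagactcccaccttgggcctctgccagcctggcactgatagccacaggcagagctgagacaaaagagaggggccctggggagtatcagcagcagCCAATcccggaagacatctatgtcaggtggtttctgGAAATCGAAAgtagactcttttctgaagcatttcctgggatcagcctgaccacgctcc
Among all 35116 RefSeq windows of this length, 3.02% hold that core and 32.0% hold CCAAT on either strand. The match was the only one for the core among the family's windows that were found, and none was found for LGALS1. It is a match of letters, not a shown binding site. The window was picked for display with this match known, so nothing is read from the rarity of the core. The window has a GC content of 56.8%, near the median of 58.0% over all windows, and no GC box.

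LGALS3, galectin-3, is the chimera-type galectin, whose proline- and glycine-rich tail lets it form oligomers. The gene (chromosome 14, 55129217 to 55145430, plus strand) has 6 exons and a transcript of 958 bp. Its mRNA was measured at 34.1 FPKM (SW1736 wt), 71.3 (SW1736-PTX), 12.1 (8505C wt) and 118 (8505C-PTX). The wt library of 8505C was the lowest and its PTX library the highest, and both PTX libraries lay above both wt libraries. In 8505C the ratio was 9.80 (8.94 to 10.7; log2 fold change 3.28, called). In SW1736 it was 2.09 (1.97 to 2.21; log2 fold change 1.06, not called). SW1736-PTX was above 8505C wt by a log2 fold change of 2.55. Galectin-3 and galectin-1 thus differed in the line in which they were called, although the difference between lines was not tested for either.

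The window upstream of LGALS3 (chr14:55129002-55129251, plus strand, RefSeq, GRCh38.p14) is given for contrast with that of LGALS3BP. Here 35 of the bases, with the last GC box, lie inside the gene as the deposited tables place it. Capitals mark its 3 GC boxes, GGGCGG on either strand, which 42.6% of all windows hold at least once:
LGALS3: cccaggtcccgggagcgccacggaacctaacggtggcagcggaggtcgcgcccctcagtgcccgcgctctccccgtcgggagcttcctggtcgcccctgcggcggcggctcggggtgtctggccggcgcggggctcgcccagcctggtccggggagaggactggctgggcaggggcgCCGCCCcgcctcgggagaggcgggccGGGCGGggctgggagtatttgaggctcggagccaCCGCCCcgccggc
Its GC content is 78.8%. It holds no CCAAT, no TATAAA (present in 10.7% of all windows) and no interferon-type core. The gamma-activated site (TTC, any 3 bases, then GAA), an NF-kB motif (GGG, any 2 bases, then TTTCC) and an AP-1 motif (TGANTCA), searched on both strands, were in neither of the windows shown, and occur in 6.57%, 1.73% and 6.57% of all windows.

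LGALS8, galectin-8, is a tandem-repeat galectin with a pair of carbohydrate-recognition domains that marks damaged vesicles for autophagy through CALCOCO2 (NDP52). The gene (chromosome 1, 236518214 to 236552979, plus strand) has 10 exons and a transcript of 5957 bp. Its mRNA varied least of the listed genes, at 6.45 FPKM (SW1736 wt), 8.81 (SW1736-PTX), 5.55 (8505C wt) and 8.44 (8505C-PTX). Both PTX libraries were slightly above both wt libraries, with log2 fold changes of 0.44 (SW1736) and 0.60 (8505C), neither called, and of 0.66 for SW1736-PTX over 8505C wt. The counting intervals of the ratios, 1.29 to 1.45 and 1.43 to 1.62, lay above 1. The gene overlaps HEATR1 at its end and the antisense LGALS8-AS1 (at most 0.153 FPKM), and whether strand was used in quantification is not given in the sources used here, so reads of overlapping parts cannot be told apart.

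LGALS9, galectin-9, is another tandem-repeat galectin, known as an immune regulator that binds TIM-3 (HAVCR2). The gene (chromosome 17, 27631148 to 27649560, plus strand) has 11 exons and a transcript of 1724 bp. It was listed at 0 in both wt libraries, at 0.364 FPKM in SW1736-PTX and at 0.339 in 8505C-PTX, which correspond to about 36 and 31 reads. Both values were below the limit of 0.5, so LGALS9 entered no call. Against a floor of 3 reads in the wt library, the level was at least 10.2-fold higher in SW1736-PTX and at least 8.49-fold higher in 8505C-PTX. With the counting error of the PTX reads included, the lower limits of the ratios were 7.83 and 6.43.

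Reads of LGALS9 can be shared with its near-identical copies LGALS9B and LGALS9C. Of the 75-base stretches of the LGALS9 transcript, 20.6% also occur in another gene of GENCODE release 44, against 56.8% for LGALS9B and 58.5% for LGALS9C. For LGALS1, LGALS3, LGALS3BP and LGALS8 the share was 0%. The stretch of exon 3 printed below, as long as 1 read, shows how few bases separate the copies. It lies at chr17:27640572-27640646 (plus strand) in LGALS9, chr17:20458310-20458384 (minus) in LGALS9B and chr17:18485934-18486008 (plus) in LGALS9C, all hg38, and capitals mark the 4 bases at which a copy differs from LGALS9:
LGALS9: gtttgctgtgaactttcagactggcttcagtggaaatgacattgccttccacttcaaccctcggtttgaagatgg
LGALS9B: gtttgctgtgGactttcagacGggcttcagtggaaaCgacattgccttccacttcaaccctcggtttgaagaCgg
LGALS9C: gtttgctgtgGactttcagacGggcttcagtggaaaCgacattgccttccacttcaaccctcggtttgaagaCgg
Across this stretch LGALS9B and LGALS9C carry the same 4 differences. LGALS9C had 0 FPKM (SW1736 wt), 0.503 (SW1736-PTX), 0.104 (8505C wt) and 0 (8505C-PTX), and LGALS9B was above 0 in SW1736-PTX alone, at 0.0681. The 3 names summed to 0 FPKM (SW1736 wt), 0.935 (SW1736-PTX), 0.104 (8505C wt) and 0.339 (8505C-PTX), so the PTX libraries remained above the wt libraries with the copies summed. In 8505C the summed rise was smaller than the limit of 6.43 given for LGALS9 alone, which therefore does not hold for the summed copies.

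The rest of the family was low or silent. LGALS2, galectin-2, a prototype galectin of the gut epithelium encoded near LGALS1, was at 0 in both wt libraries, with 0.903 FPKM in SW1736-PTX and 0.358 in 8505C-PTX. These were 8.78-fold and 3.10-fold higher than 3 reads in the wt library, with the counting error of the PTX reads left out. LGALSL, a galectin-related protein, was at 0.884, 1.76, 1.85 and 2.83 FPKM in SW1736 wt, SW1736-PTX, 8505C wt and 8505C-PTX. Signal of LGALS4 was seen in 8505C-PTX alone (0.219 FPKM) and of LGALS12 in SW1736 wt alone (0.0291 FPKM, about 2 reads). The 7 names CLC, LGALS7, LGALS7B, LGALS13, LGALS14, LGALS16 and LGALS17A were at 0 in all 4 libraries.

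Of the 5 listed genes, 4 could be compared in SW1736 and 2 were called higher, LGALS1 and LGALS3BP, where 15.7% of all 14202 compared genes were called higher and 10.2% lower. In 8505C, 4 could be compared and 2 were called higher, LGALS3 and LGALS3BP, beside 15.0% of 13794 genes called higher and 5.89% lower. Over the whole family, 4 of 7 compared names were called higher in SW1736 (LGALS1, LGALS2, LGALS3BP and LGALS9C) and 2 of 5 in 8505C, and 0 were called lower in either line. With a pseudocount of 1, LGALS2 (0.93) and LGALS9C (0.59) lost their call in SW1736. Between the wt lines, 1 of 5 compared names (LGALS3BP) was called higher in 8505C, with 7.73% of all genes called higher and 9.92% lower. Between the PTX lines, 2 of 7 (LGALS1 and LGALS9C) were called lower in 8505C-PTX, with 3.70% of all genes called higher and 4.09% lower. Of 7 names compared between SW1736-PTX and 8505C wt, 4 were called higher (LGALS1, LGALS2, LGALS3 and LGALS9C), with 15.1% of all genes called higher and 5.23% lower. The comparisons share libraries, and since the genes were chosen with abundance known, nothing is read from these counts.

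**Figure D3:**
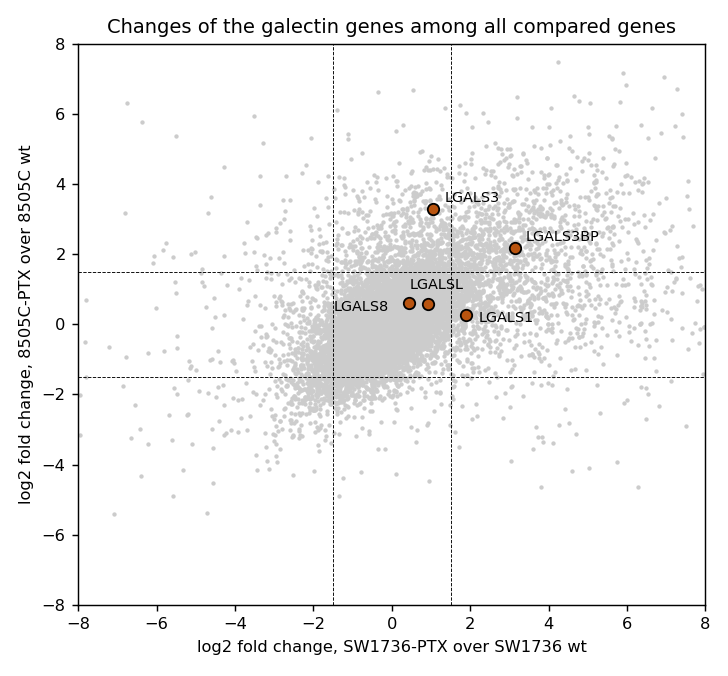
Log2 fold changes in SW1736 (horizontal) and 8505C (vertical) of the 13304 genes compared in both lines (grey; 43 lie outside the axes), with galectin genes in orange and dashed lines at the limits of 1.5. LGALS3BP is beyond the limit on both axes, LGALS1 on the SW1736 axis alone and LGALS3 on the 8505C axis alone.

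The makeup of the family's RNA pool also differed. This pool counts LGALS3BP, which is not a galectin, and the non-coding LGALS8-AS1 and LGALS17A. Summed over the family, it came to 1325 FPKM (SW1736 wt), 5045 (SW1736-PTX), 1194 (8505C wt) and 2021 (8505C-PTX). LGALS1 made up 93.5%, 90.5%, 86.4% and 61.7% of this sum, in the same order, and LGALS3BP 3.36%, 7.79%, 11.9% and 31.8%. The galectin ligand LGALS3BP thus took its largest part of the pool in 8505C-PTX, and the percentage of LGALS1 depends on counting it. Between the galectins themselves, the ratio of LGALS1 to LGALS3 was 36.3 (SW1736 wt), 64.1 (SW1736-PTX), 85.5 (8505C wt) and 10.6 (8505C-PTX). The ratio of LGALS1 to LGALS3BP was 27.8 (SW1736 wt), 11.6 (SW1736-PTX), 7.25 (8505C wt) and 1.94 (8505C-PTX), lower in each PTX library than in its wt library. The ratio of LGALS3BP to LGALS3 was 1.30, 5.51, 11.8 and 5.44, so it was higher in SW1736-PTX but lower in 8505C-PTX than in wt.

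The genes beside the galectins on the chromosome were compared next. Of the 3 nearest expressed genes on each side of LGALS1, 3 were called higher in SW1736-PTX: SH3BP1 with a log2 fold change of 2.18, the non-coding LOC101927051 with 1.86 (0.50, not called, with a pseudocount of 1) and the actin-binding TRIOBP with 2.32. SH3BP1 and LOC101927051 overlap by their coordinates, so their values may not be separate. The linker histone gene H1F0 was called lower, with -6.94, but with 1.29 against 8505C wt, where it was at 0 FPKM. In 8505C none of the 6 was called, and the median was 0.05 against 1.66 in SW1736. LOC101927051 was also the gene whose pattern over the 4 libraries was most like that of LGALS1 among 14692 genes (distance 0.0831 in centred log2 units). It was at 0.503 FPKM in SW1736-PTX and at most 0.0660 in the other libraries. The latter values are below the pseudocount of 0.1, so this distance depends on the pseudocount.

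After these values had been seen, the window was widened to 1 Mb on each side. Around LGALS1, 21 of 41 compared genes were called higher in SW1736-PTX, LGALS2 among them, and 2 lower, with a median log2 fold change of 1.54, whereas over chromosome 22 as a whole 67 of 358 genes (18.7%) were called higher, with a median of 0.22. Against 8505C wt, all 38 compared genes were above 0 in SW1736-PTX, with a median of 2.03 and 23 called higher. Over chromosome 22 as a whole, 88 of 346 genes (25.4%) were called higher in that comparison, with a median of 0.55. In 8505C-PTX, 5 of 31 were called higher, with a median of 0.77. The whole chromosome had 64 of 332 (19.3%) called higher there, with a median of 0.32. LGALS1, with log2 fold changes of 1.88, 2.15 and 0.27 in these comparisons, therefore lay near the middle of its neighbours in SW1736-PTX and below it in 8505C-PTX. Among the genes of the window, C1QTNF6 had 1.73 FPKM (SW1736 wt), 186 (SW1736-PTX), 3.73 (8505C wt) and 34.1 (8505C-PTX). EIF3L, a translation initiation factor subunit, had 109, 592, 123 and 216 FPKM in these libraries. These genes were picked after their values were seen, and DNA copy number was not measured here.

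Around LGALS8, 4 of 8 genes within 1 Mb were called higher and 0 lower in SW1736, and 2 of 8 higher in 8505C, with medians of 1.24 and 1.36. Around LGALS9, 4 of 17 were called higher in SW1736 and 2 of 17 in 8505C, with medians of 0.24 and 0.25. Over all compared genes, 15.7% (SW1736) and 15.0% (8505C) were called higher, and 10.2% and 5.89% lower. The shares called higher were 15.5% and 15.3% over chromosome 1, which holds LGALS8, and 21.9% and 17.7% over chromosome 17, which holds LGALS9. Neither LGALS8 nor LGALS9 was itself called. Within 1 Mb of LGALS3, 0 of 14 compared genes were called in SW1736, and in 8505C 0 were called higher and 3 lower, with a median of -0.41, opposite in sign to the change of LGALS3 itself. Over chromosome 14, which holds LGALS3, 27 of 449 genes were called lower in 8505C, with a median of -0.01. The LGALS3 neighbours DLGAP5 and WDHD1, with roles in mitosis and DNA replication, had log2 fold changes of -1.83 and -2.04 in 8505C. Within 1 Mb of LGALS3BP, 3 of 19 genes were called higher and 2 lower in SW1736, and 3 higher and 1 lower in 8505C, with medians of 0.69 and 0.51, and the higher calls were near the 15.7% and 15.0% of all genes. TIMP2, an inhibitor of matrix metalloproteinases next to LGALS3BP, reached 106 FPKM (SW1736 wt), 389 (SW1736-PTX), 162 (8505C wt) and 401 (8505C-PTX), and was called in SW1736 alone (log2 fold change 1.88).

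**Figure D4:**
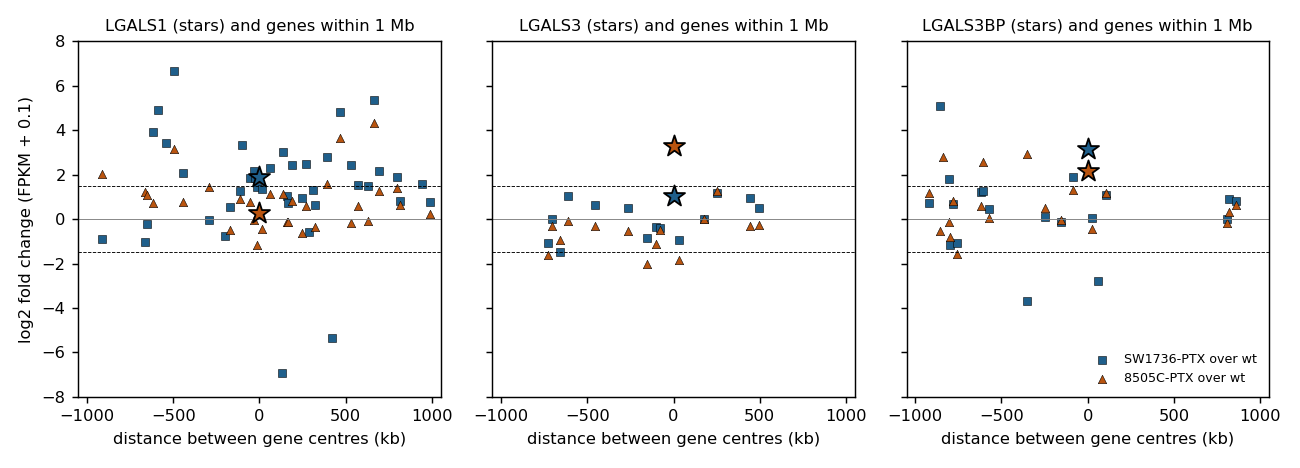
Log2 fold changes of the compared genes within 1 Mb of LGALS1, LGALS3 and LGALS3BP against the distance between gene centres in kb; squares are SW1736, triangles 8505C, stars the galectin gene, and dashed lines the limits of 1.5. Around LGALS1, 33 of 41 squares lie above 0, while the stars of LGALS3 and of LGALS3BP lie above most of their neighbours.

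Genes of the pathways in which galectins act were described by 5 lists. Over all compared genes, 15.7% were called higher and 10.2% lower in SW1736, and 15.0% and 5.89% in 8505C, and each list is to be read against these shares. Of 40 glycoproteins that galectins bind, 29 could be compared in each line, and 9 were called higher and 4 lower in SW1736, and 4 higher and 3 lower in 8505C. The medians were 0.65 and 0.34, beside 0.01 and 0.11 over all compared genes. ITGA1, the collagen- and laminin-binding integrin alpha-1, was called higher in both lines and was at 0.516, 7.82, 7.59 and 49.0 FPKM in SW1736 wt, SW1736-PTX, 8505C wt and 8505C-PTX. L1CAM, a neural adhesion molecule, was called lower in both and was at 121, 5.31, 4.55 and 1.01 FPKM, so that SW1736-PTX was slightly above 8505C wt (log2 fold change 0.22), and with a pseudocount of 1 its value in 8505C was -1.47, no longer called. LAMA5, a laminin chain, had 0.430 FPKM (SW1736 wt) and 129 (SW1736-PTX), but also 68.2 (8505C wt) and 138 (8505C-PTX). With 8505C wt as the reference, 3 of 29 were called higher and 2 lower in SW1736-PTX, beside 15.1% and 5.23% of all genes.

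The next list holds genes that build galectin ligands, above all N-acetyllactosamine on branched N-glycans. It includes some that act on O-glycans or glycolipids. Of 34 listed, 30 could be compared in SW1736, with 4 called higher and 5 lower (median -0.21), and 29 in 8505C, with 3 higher and 2 lower (median 0.01). The higher calls were below the shares over all genes, 15.7% and 15.0%. MGAT4A, which adds a branch to N-glycans, was called higher in both lines, with at most 0.210 FPKM in wt cells and 0.853 in SW1736-PTX. B3GNT3, which extends core O-glycans, was also called higher in both, at 0, 1.08, 0.155 and 0.919 FPKM in the library order above. With a pseudocount of 1, neither was called in either line (MGAT4A 0.88 and 0.80, B3GNT3 1.05 and 0.73). UAP1, which makes the donor UDP-N-acetylglucosamine, was called lower in both, at 79.1, 26.2, 82.8 and 21.3 FPKM. In single lines, the largest changes were those of B4GALT6 (log2 fold change 3.75) and B3GNT9 (-6.62) in SW1736 and B3GNT5 (-2.96) in 8505C. Of these, B4GALT6 and B3GNT5 act in glycolipid synthesis rather than on N-glycans. With 8505C wt as the reference, B4GALT6 and B3GNT9 had log2 fold changes of -0.58 and 0.42 in SW1736-PTX. In that comparison 3 of 29 enzymes were called higher and 4 lower, beside 15.1% and 5.23% of all genes.

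Sialic acid caps help decide whether terminal galactose is open to galectins. The 17 genes listed here add or supply sialic acid, except for the sialidases NEU1 and NEU3, which remove it. Counts and medians cover both kinds. Of these genes, 15 could be compared in each line. In SW1736, 3 were called higher and 2 lower (median 0.16), and in 8505C 2 higher and 0 lower (median 0.39). The higher calls were near the 15.7% and 15.0% of all genes called higher. Against 8505C wt, 1 of 14 was called higher in SW1736-PTX, beside 15.1% of all genes. ST3GAL5, which makes the ganglioside GM3, was called higher in both lines, at 0.124, 10.6, 2.90 and 10.6 FPKM. ST6GAL1, which adds the alpha-2,6-linked sialic acid that blocks galectin-1 binding, was called lower in SW1736 alone, at 3.99 FPKM in wt and 0.386 in SW1736-PTX, and was at 0.615 and 0.332 in 8505C wt and 8505C-PTX.

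The response to damaged endomembranes, in which galectin-8 and galectin-3 take part, had 22 listed genes. All 22 could be compared in SW1736, with 3 called higher and 0 lower (median 0.61), and 21 in 8505C, with 0 called (median 0.43), beside 15.7% and 15.0% of all genes called higher. Against 8505C wt, 3 of 22 were called higher in SW1736-PTX, beside 15.1% of all genes. UBE2QL1, a ubiquitin-conjugating enzyme of damaged lysosomes, had the largest rise in SW1736 and was at 0, 7.34, 0.373 and 1.17 FPKM.

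LGALS3BP is known as an interferon-inducible gene, so 22 interferon-response genes were listed beside it. Of the 21 compared in each line, 10 were called higher and 1 lower in SW1736, and 10 higher and 0 lower in 8505C, with medians of 1.49 and 1.33, beside 15.7% and 15.0% of all genes called higher. Against 8505C wt, 12 of 21 were called higher in SW1736-PTX, beside 15.1% of all genes. The genes called higher in both lines were IFI6, IFI27, IFI35, IFITM1, MX1 and XAF1, of which IFI27 (0.86), MX1 (1.40) and XAF1 (0.91) lost the call in SW1736 with a pseudocount of 1. IFITM1, an antiviral membrane protein, reached 11.3 FPKM (SW1736 wt), 286 (SW1736-PTX), 72.0 (8505C wt) and 761 (8505C-PTX), which is the same order of libraries as that of LGALS3BP. IFI35 was at 5.98, 29.5, 8.66 and 29.3 FPKM. BST2, tetherin, was called lower in SW1736, where wt cells had 37.7 FPKM and PTX cells 11.9. The list was chosen with earlier results of these data known, and a link between it and LGALS3BP was not tested.

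**Figure D5:**
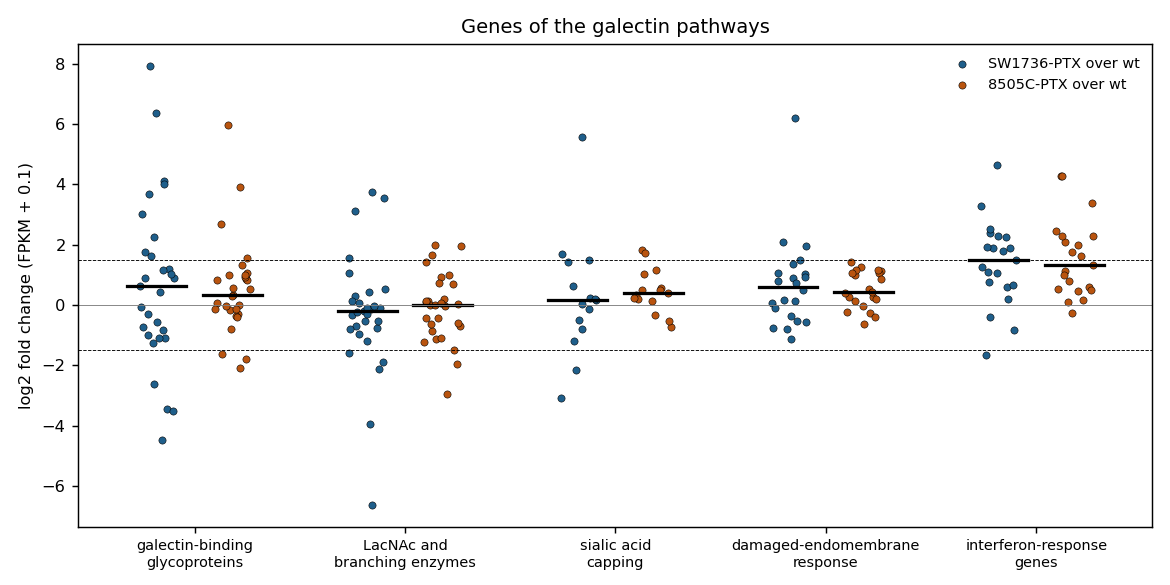
Log2 fold changes of the compared genes of the 5 lists, blue for SW1736 and orange for 8505C; bars are medians, dashed lines the limits of 1.5, and horizontal jitter within a column has no meaning. The interferon-response genes have the highest medians, 1.49 and 1.33, while the enzymes of N-acetyllactosamine and branching lie around 0.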

How the data were processed

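Total RNA of 4 cultures was made into mRNA libraries and sequenced with single-end reads of 75 bp. According to the methods, the authors trimmed adapters with Cutadapt and low-quality bases with ERNE, mapped the reads on hg38 by STAR and obtained gene abundances from StringTie; bcl2fastq 2.20 is named in the submitters' processing notes, and the annotation and the versions of ERNE, STAR and StringTie are not given in the sources used here. The tables deposited by the authors hold, per gene, coverage (mean reads per base, not normalised), FPKM and TPM. They hold no read counts, so no count test was used.

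The FPKM of rows with the same gene name were summed. Depth was taken from the ratio of coverage to FPKM and read length, and approximate reads from FPKM, transcript length and depth, so intervals and the floor of 3 reads cover counting error only. Genes above 0.5 FPKM in at least 1 library of a pair were compared, with a pseudocount of 0.1, and called beyond a log2 fold change of 1.5. Both limits come from the study's methods. The calls were tested on simulated data with large changes and counting error only, so the spread between cultures was not covered. Groups came from the sample labels.

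Named were all names starting with LGALS and CLC. Of each list, the members called in both lines and the largest rise and fall of each line were named, with the 3 genes most like each member (Euclidean distance in centred log2(FPKM + 0.1) over the 4 libraries), the 3 nearest expressed genes on each side and the most abundant genes. The members and lists were chosen with earlier results of these data known. The 1 Mb windows and the use of 8505C wt as reference were chosen after seeing the data. Promoter windows came from RefSeq (GRCh38.p14), where 4 of the 5 members matched. LGALS1 had no window there, so its promoter was not searched. Transcripts came from GENCODE release 44. Python 3.11.15, NumPy 2.4.6, pandas 2.3.3, SciPy 1.17.1 and matplotlib 3.10.9 were used. Viability, immunoblot and quantitative PCR experiments were not analysed here.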

Additional observations from a re-analysis of the deposited data

Results flagged for a closer look

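Among the listed pathway genes, 3 were called in opposite directions in the 2 lines, and the difference between the lines was not tested because each condition had 1 library. CD40, a receptor of the tumour necrosis factor family, had log2 fold changes of -3.51 (SW1736) and 5.96 (8505C), with 38.0 FPKM (SW1736 wt), 3.25 (SW1736-PTX), 0 (8505C wt) and 6.10 (8505C-PTX). FN1, fibronectin, had log2 fold changes of -3.45 (SW1736) and 1.56 (8505C), with 1133, 103, 91.7 and 270 FPKM in the same order. ST6GALNAC2, a sialyltransferase of O-glycans, had log2 fold changes of -2.14 (SW1736) and 1.73 (8505C), but did not exceed 1.72 FPKM in any library. With a pseudocount of 1, ST6GALNAC2 lost both calls (-1.05 and 0.47), and FN1 lost its call in 8505C (1.45) when changes were centred on the median of the compared genes. Against 8505C wt, SW1736-PTX was higher for all 3, with log2 fold changes of 5.06 for CD40, 0.17 for FN1 and 1.20 for ST6GALNAC2.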

How the results depend on the processing

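No paired analysis was possible because each condition has 1 library and the labels carry no replicate numbers. The calls of LGALS1, LGALS3 and LGALS3BP and their directions are limited by the absence of replicates, and at the depth of these libraries LGALS9 rests on about 36 and 31 reads.

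The changes of LGALS1, LGALS3, LGALS3BP, LGALS8 and LGALS9 kept their sign under each alternative run. At a limit of 2, LGALS1 in SW1736 (1.88) was no longer called, and at a limit of 1, LGALS3 in SW1736 (1.06) was. Counts of called genes that moved by over 1.5 times were these, and the cause was not tested where the alternative does not show it. With a pseudocount of 1, the family calls in SW1736 went from 4 to 2, sialic acid capping genes from 5 to 2 and interferon-response genes from 11 to 7, and in 8505C the branching enzymes went from 5 to 2 and the capping genes from 2 to 1. With a pseudocount of 0.01, endomembrane genes in 8505C went from 0 to 1. Requiring 0.5 FPKM in both libraries, which leaves fewer genes, gave 2 family calls, 4 branching enzymes, 2 capping genes and 1 endomembrane gene in SW1736, and 3 branching enzymes and 1 capping gene in 8505C. With no FPKM filter, the 8505C family calls went from 2 to 5, and with TPM to 4, with 1 endomembrane gene. At a limit of 1, endomembrane genes in SW1736 went from 3 to 8, and in 8505C the counts were 11 glycoproteins, 11 branching enzymes, 4 capping genes and 8 endomembrane genes. At a limit of 2, SW1736 kept counts of 3 capping and 6 interferon-response genes, and 8505C of 4 glycoproteins, 1 branching enzyme and 0 capping genes. Centring on housekeeping genes, whose median was -0.08 in SW1736 and -0.38 in 8505C, gave 5 endomembrane genes in 8505C. With 8505C wt as reference for SW1736-PTX, chosen after seeing the data, the counts were 5 glycoproteins (13 with SW1736 wt) and 1 capping gene. With that reference 7 named genes reversed their called direction in SW1736-PTX, to log2 fold changes of 0.22 for L1CAM, 0.17 for FN1, 5.06 for CD40, -0.58 for B4GALT6, 0.42 for B3GNT9, 1.20 for ST6GALNAC2 and 1.29 for H1F0. The log2 fold change of LGALS9 went from 2.21 and 2.14 to 5.22 and 5.13 with a pseudocount of 0.01 and to 0.45 and 0.42 with 1.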

Other observations

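The genes whose pattern over the 4 libraries was most like that of a galectin gene, by Euclidean distance in centred log2(FPKM + 0.1) among 14692 genes, are given as values. For LGALS3BP they were ASIC1, an acid-sensing ion channel (distance 0.142), at 1.72, 17.1, 5.33 and 25.8 FPKM in SW1736 wt, SW1736-PTX, 8505C wt and 8505C-PTX, LPAR6, a lysophosphatidic acid receptor (0.165), and DEPTOR, an inhibitor of mTOR (0.201). For LGALS3 they were NATD1 (0.117), SCNN1A, a subunit of the epithelial sodium channel (0.120), and TTYH2 (0.163). NATD1 was at 2.68, 5.86, 0.951 and 10.6 FPKM. For LGALS1, TSPEAR-AS2 (0.176) and SIRPG (0.197) followed LOC101927051. For LGALS8 the nearest was GGPS1, which makes geranylgeranyl diphosphate (0.0369), followed by ALDH4A1 and ZFP62. For LGALS9 it was PTPRH, a receptor tyrosine phosphatase (0.0255), at 0.444, 2.49, 0.452 and 2.31 FPKM, followed by IQCD and CECR5-AS1. Distances of genes with levels below 0.1 FPKM, such as LOC101927051, SCNN1A, LPAR6 and LGALS9, depend on the pseudocount. With 4 libraries many genes can share such an order, and no test was made.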
